A study of Homo sapiens with 12 samples.

Results

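The ZBTB genes encode transcription factors that join an N-terminal BTB (POZ) domain to C2H2 zinc fingers. All gene rows whose symbol is ZBTB followed by a number, with or without a letter, were taken: 41 of 23615 rows, of which 36 averaged 1 FPKM or more across 12 libraries, the level called expressed here. FPKM, the deposited unit, is a fragment count corrected for transcript length and for the number of fragments mapped in that library. The study sequenced polyadenylated RNA from HEK293T, an embryonic kidney line of human origin with the SV40 large T antigen, in 4 groups of 3 libraries. Cells had either vehicle, the storage buffer of the peptide, or 2 μM CP25, named in the labels as a macrocycle that inhibits the mRNA decapping enzyme Dcp2, for 18 h. All 4 groups then got 5 μg/mL actinomycin D, a blocker of transcription, and were harvested either at once (0 h) or 2 h later. The 0 h groups are thus the reference for the level before the block, and all groups share 1 unmodified line. The labels number the libraries 1 to 3 without saying that they are separate cultures, so the spread behind each p-value may be a technical one.

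The BTB domain forms dimers and, in many members, recruits corepressors such as NCOR1 and BCOR with their histone deacetylases, while the zinc fingers read DNA. Best known are the lineage regulators of blood cells, among them ZBTB16 (PLZF), ZBTB7B (ThPOK) and ZBTB7A (LRF), and the reader of methylated DNA ZBTB33 (Kaiso). Transcription factor mRNAs as a class are known to be short-lived. Decapping by Dcp2 exposes the 5′ end of an mRNA to the exonuclease XRN1, so a decapping inhibitor is used to ask which mRNAs decay by this route.

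The libraries held an estimated 14350000 to 24350000 fragments at 0 h and 24150000 to 32450000 at 2 h, so that 1 FPKM of a transcript of 2 kb stood for 28.7 to 64.9 fragments. HEK293T markers (9 of 9, such as KRT8, VIM and PAX2) were expressed, at a summed 260 to 393 FPKM per library, whereas 0 of 7 haematopoietic, 0 of 5 endothelial and 0 of 6 mature kidney markers reached 1 FPKM. Of the fibroblast markers 2 of 6 and of the keratinised epithelium markers 1 of 5 did, at summed levels of 3.66 to 5.94 and 4.09 to 6.05 FPKM per library. The tables of 0 h and 2 h were deposited separately, and an FPKM value is relative to its own library. If the values were not also scaled between libraries, which is unknown, a lower 2 h level means a loss relative to the library's fragment total. It does not mean a loss relative to the median gene with 1 FPKM or more, which itself had 86.5% left in vehicle and 87.8% with CP25. Levels across the times are therefore given as a percentage left, without a test. In bulk RNA, fewer cells that express a gene and less RNA per cell cannot be told apart.

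Before the block most of the family was present at modest levels. ZBTB33, the methyl-CpG binding partner of p120 catenin, had the highest level, with 43.6, 43.2 and 42.1 FPKM in vehicle replicates 1 to 3 and 43.5, 40.9 and 40.7 FPKM with CP25. ZBTB11 followed with 19.4, 17.9 and 17.6 FPKM in vehicle, then ZBTB24, whose loss causes an immunodeficiency with centromere instability, with 17.2, 17.6 and 19.8 FPKM. ZBTB10, a repressor of Sp factor genes, had 17.8, 17.3 and 16 FPKM, and ZBTB18 (RP58), a repressor of neuronal development, 18, 13.1 and 15.2 FPKM. ZBTB33 thus stood apart from the other members in every library, while ZBTB11, ZBTB24, ZBTB10 and ZBTB18 overlapped in their ranges. FPKM are scaled to transcript length, so these levels can be compared between genes.

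Below these 5, members with a 0 h mean over both treatments near or above 10 FPKM were ZBTB2 (14.7), ZBTB44 (12.2), ZBTB1 (11.6), ZBTB7A (11.3), ZBTB21 (10.5), ZBTB9 (10.3) and ZBTB40 (10.1). The next were ZBTB5 (9.63), ZBTB48 (9.56), ZBTB34 (8.52), ZBTB6 (8.43), ZBTB4 (8.1), ZBTB12 (8.1), ZBTB39 (7.39) and ZBTB17 (7.35). Around 5 FPKM lay ZBTB26 (5.95), ZBTB41 (5.91), ZBTB8A (5.4), ZBTB14 (5.28), ZBTB38 (5.28), ZBTB43 (5.27), ZBTB22 (4.69), ZBTB25 (4.63) and ZBTB45 (4.48). ZBTB7B (4.15), ZBTB47 (3.13), ZBTB8B (2.12), ZBTB46 (2.04), ZBTB3 (2.04), ZBTB37 (2) and ZBTB49 (1.95) closed the expressed set. The median over expressed members was 7.74 FPKM at 0 h, against 12.9 FPKM over all expressed genes.

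Low or near 0 were 5 members. ZBTB16, a regulator of innate lymphocytes and of germline stem cells, lay just under the level for expression with a 12-library mean of 0.88 FPKM, and ZBTB49 just above it with 1.18 FPKM. ZBTB42 had a mean of 0.746 and ZBTB7C of 0.645 FPKM. ZBTB20, a repressor of alpha-fetoprotein in liver, had 0.133, 0.0929 and 0.152 FPKM in vehicle and 0.0138, 0.0463 and 0.00 FPKM with CP25 at 0 h, and ZBTB32, a repressor in lymphocytes, a mean of 0.0281 FPKM. ZBTB32 rested on an estimated 0 to 1.05 fragments in the lowest library of each group. ZBTB20 had at least 51.5 estimated fragments in the vehicle libraries of 0 h but 0 in 1 CP25 library. That estimate takes an annotated transcript of 27125 nt, and the length used by the authors is unknown. In this annotation 56.1% of its exon bases are shared with other genes on the same strand. With no filter on level, limma gave ZBTB20 a log2 change with CP25 at 0 h of -0.14 (unadjusted p = 0.00256, adjusted p = 1.00).

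After 2 h of block the members' levels were mostly lower than before it, and most members fell further than the median gene. The 2 h mean was below the 0 h mean for 41 of 41 members in vehicle, against 69.7% of all rows above 0, and for 40 of 41 with CP25, against 67.3%, the exception being the near-absent ZBTB20. Under 50% of the 0 h level was left for 25 of 41 members in either treatment (61.0%), against 17.9% of all rows above 0 in vehicle and 17.5% with CP25. Of these rows, ZBTB3 and ZBTB49 counted as expressed only through their 0 h level, since their 2 h means were below 1 FPKM.

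Among the 36 expressed members the median left was 46.0% in vehicle and 45% with CP25, against 86.5% and 87.8% over 12183 expressed genes. On the scale of log2(FPKM + 1) the median ratio of 2 h to 0 h was -0.98 and -0.88, against -0.18 and -0.16. A log2 ratio below -1 was found for 17 members in vehicle (7.37% of all expressed genes), 16 with CP25 (7.26%) and 15 in both (6.26%). Under 50% was left for 21 members in vehicle (12.1% of all) and 22 with CP25 (11.7%), with 21 in both (10.2%). Under 25% was left for 4 members in vehicle (2.51% of all) and 2 with CP25 (2.4%). ZBTB49, which counted as expressed only through its 0 h level, is among these in both treatments. No expressed member kept its 0 h level, whereas 62.1% of all expressed genes were below it in both treatments.

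**Figure D1:**
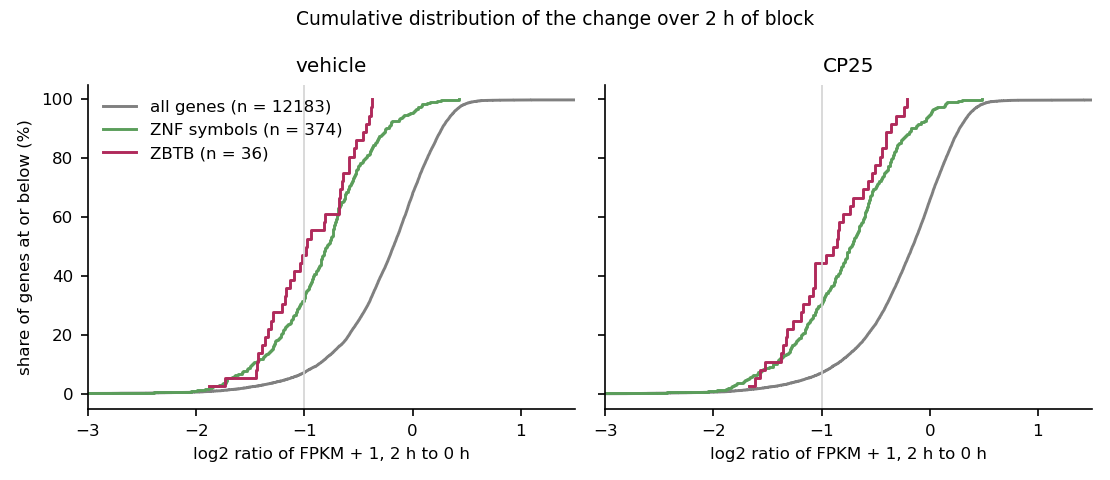
Cumulative share of genes (vertical axis, %) by log2 ratio of FPKM + 1 at 2 h to 0 h (horizontal axis), in vehicle (left) and with CP25 (right), for all 12183 expressed genes, the 374 expressed genes with ZNF symbols and the 36 expressed ZBTB members. The ZBTB line lies left of that of all genes, with medians of -0.98 and -0.88 against -0.18 and -0.16, and it ends below 0 in both panels as deposited.

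The separation between times was wide for single members. In vehicle all 3 libraries at 2 h lay below all 3 at 0 h for 36 of 36 expressed members (46.0% of all expressed genes), and with CP25 for 35 of 36 (44.0%). The exception was ZBTB25. The order of the members was alike in the treatments, which share no libraries: over 36 members the log2 ratios in vehicle and with CP25 had a Pearson correlation of 0.968 and a Spearman correlation of 0.974, given as a description. What was left ranged from 18.9% (ZBTB6) to 73.0% (ZBTB41) in vehicle and from 21.1% (ZBTB49) to 83.6% (ZBTB8A) with CP25. After ZBTB49, whose 2 h level was low, the next lowest with CP25 was ZBTB6 at 22.9%.

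The scale between the tables bears on these values. Centring each library on its median moved the median of all genes from -0.18 to 0.17 in vehicle and left the distance between members and all genes at -0.80. In that setting 7 members, not 17, were below -1 in vehicle (3.32% of all genes), and with quantile normalization 4 were (3.14%). With CP25 it was 7 centred (3.42%) and 5 after quantile normalization (3.23%), not 16. All 36 members stayed below the median of all genes when centred, and 34 in vehicle and 32 with CP25 did after quantile normalization.

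**Figure D2:**
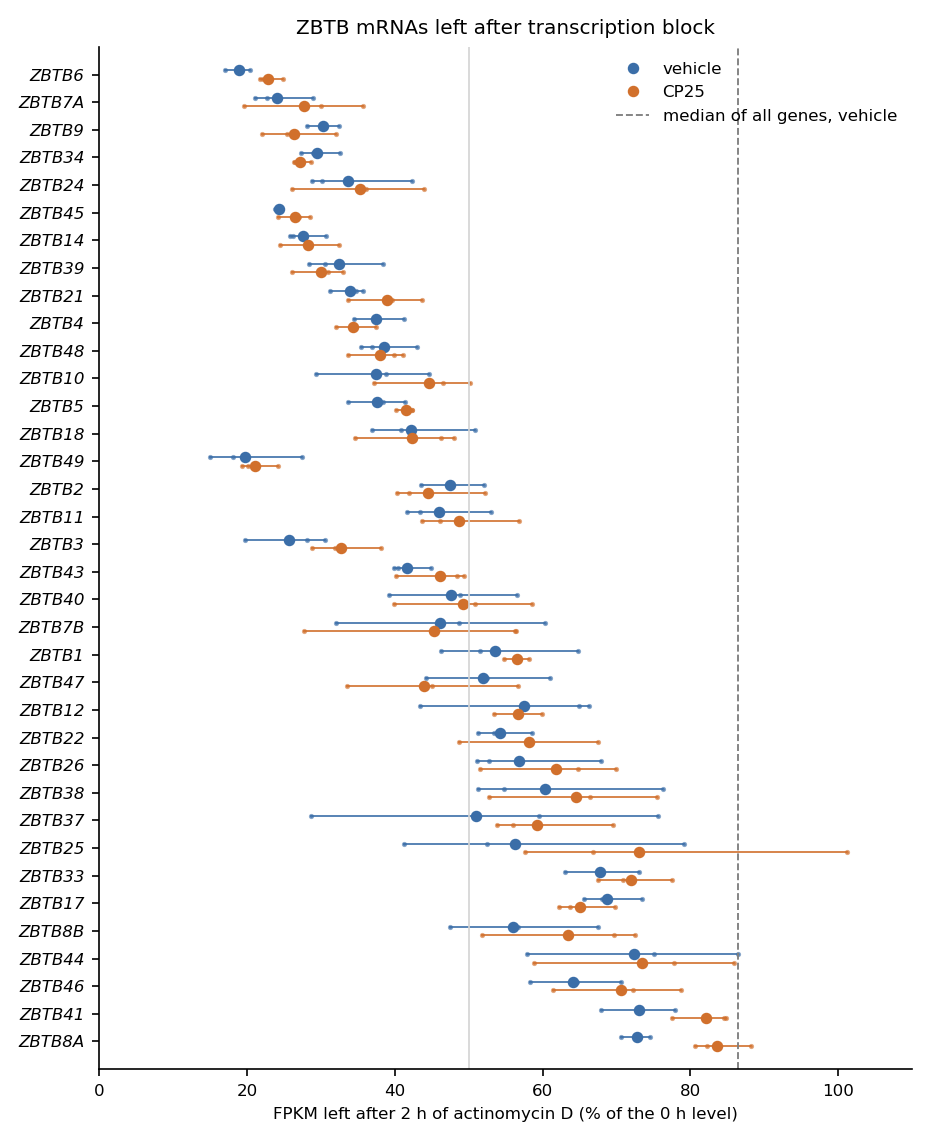
FPKM left after 2 h of actinomycin D as a percentage of the 0 h level (horizontal axis) for the 36 expressed ZBTB members, ordered by the mean log2 ratio. Large points are ratios of the group means in vehicle (blue) and with CP25 (orange), small points and lines show the spread over the 3 ratios of libraries with the same number, the dashed line is the median of all expressed genes in vehicle (86.5%) and the thin line marks 50%. The large points run from 18.9% for ZBTB6 to 83.6% for ZBTB8A; for ZBTB8A, ZBTB41 and ZBTB46 the direction depends on the scaling of the tables.

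Where known, sequence elements of the 3′ UTR give a handle on mRNA turnover, and the nonamer TTATTTATT, the core of the AU-rich element of unstable mRNAs, is shown here in the members that hold it because its holders include the fastest member and others above the family's median. Transcripts came from GENCODE 29 on GRCh38, which gave 1 transcript for each of 41 members. The authors' values were made on hg19, so coordinates printed here belong to the annotation and not to their tables. Searched on the sense strand with overlaps allowed, the nonamer was in the annotated 3′ UTR of 6 of 36 expressed members (16.7%), against 8.74% of expressed genes. For these 6 genes the nonamer is in capitals, and each stretch lies within 1 exon of the 3′ UTR.
ZBTB6 (chr9:122908391-122908417, minus strand): ttatttataTTATTTATTcctgttcag
ZBTB34 (chr9:126884965-126884991, plus strand): tggtcagggTTATTTATTaaattttat
ZBTB39 (chr12:57001265-57001291, minus strand): cattaatatTTATTTATTtttgttttt
ZBTB26 (chr9:122915816-122915842, minus strand): ctctgtcagTTATTTATTtattattta
ZBTB37 (chr1:173899420-173899446, plus strand): tacagccagTTATTTATTtaaaaagta
ZBTB8B (chr1:32488761-32488787, plus strand): gcataatatTTATTTATTtttaatttt
In vehicle these mRNAs had 18.9% (ZBTB6), 29.5% (ZBTB34), 32.4% (ZBTB39), 56.8% (ZBTB26), 51.0% (ZBTB37) and 56.0% (ZBTB8B) left, so holders of the nonamer lay both below and above the family's median of 46.0%. ZBTB26 held 2 matches and ZBTB8B 3, of which the first is printed. A match is a description of the letters, not of a site in use.

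The members also differ from other genes in the make-up of their transcripts. Their median transcript length was 5204 nt, against 3250 nt over 10836 expressed genes with an annotation (89.0% of expressed genes), and the median 3′ UTR had 2853 nt against 1157 nt. The median number of exons was 3.5 against 9. The pentamer ATTTA, which every nonamer contains, occurred in the 3′ UTR of 31 of 36 members (86.1%) and in 71.7% of expressed genes, but longer UTRs hold more matches by length alone. In the last 500 nt of those UTRs that are at least that long, ATTTA was in 19 of 31 members (61.3%) and in 64.6% of genes. The nonamer was in 2 of 31 (6.45%) and 2.99%, and TGTANATA, the motif of Pumilio proteins, in 5 of 31 (16.1%) and 15.5%. With the windows made equal, the members' shares of ATTTA and TGTANATA were thus close to those of other genes.

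Correlations of these features with what was left were weak. Over 36 members the Spearman correlation with the mean log2 ratio was 0.27 for transcript length, 0.26 for 3′ UTR length, 0.27 for exon number, -0.16 for GC content and 0.22 for the count of ATTTA, where values above 0 mean that more was left. The 0 h level itself had -0.33, but -0.0608 with the percentage left, which has no pseudocount, in place of the log2 ratio; over all expressed genes the value with the log2 ratio was 0.31. These are descriptions over transcripts that share 12 libraries.

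The readers of methylated DNA, ZBTB33, ZBTB4 and ZBTB38, did not move alike. ZBTB33 had 27.5, 31.6 and 28.3 FPKM at 2 h in vehicle and 29.4, 31.7 and 28.9 FPKM with CP25, that is 67.8% and 71.9% of its 0 h level. ZBTB4 had 9.12, 7.51 and 7.86 FPKM at 0 h and 3.15, 3.1 and 2.94 FPKM at 2 h in vehicle, and 9.03, 7.76 and 7.31 and 2.89, 2.9 and 2.49 FPKM with CP25. Only 37.5% and 34.4% of ZBTB4 was left, and the times did not overlap in either treatment for ZBTB33 or ZBTB4. ZBTB38 lay with ZBTB33, at 60.3% left in vehicle (5.49 ± 0.344 FPKM at 0 h, 3.31 ± 0.561 FPKM at 2 h, SD, n = 3) and 64.5% with CP25.

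Of the MYC partner ZBTB17 and the repressors of cell-cycle genes ZBTB7A, ZBTB2, ZBTB5 and ZBTB14, 4 of 5 had under 50% left in both treatments, against 21 of 36 members and 10.2% of all expressed genes. ZBTB7A, which silences fetal globin in erythroid cells and represses the ARF gene, had 12.4, 10.6 and 11.9 FPKM at 0 h and 2.61, 3.07 and 2.69 FPKM at 2 h in vehicle. With CP25 it had 12.6, 9.65 and 10.4 and 2.46, 3.45 and 3.13 FPKM. The level left was 24% and 27.7%, with the lowest 0 h library far above the highest 2 h library in both treatments. ZBTB14 (ZF5), which binds GC-rich promoters, was close, at 27.5% (5.39 ± 0.159 to 1.48 ± 0.112 FPKM, SD, n = 3) and 28.3%. ZBTB5 and ZBTB2, repressors of the CDKN1A gene, had 37.6% and 47.5% left in vehicle and 41.6% and 44.5% with CP25.

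ZBTB17 (MIZ1), through which MYC represses promoters, was the slow one of these 5. It had 6.4, 7.64 and 7.54 FPKM at 0 h and 4.71, 5.2 and 4.94 FPKM at 2 h in vehicle, and 7.31, 7.21 and 7.99 and 4.66, 5.04 and 4.97 FPKM with CP25. That left 68.8% and 65.1%, and the times did not overlap. MYC itself, the partner of ZBTB17, had 64.9 ± 10.8 FPKM at 0 h and 6.38 ± 2.86 FPKM at 2 h in vehicle (SD, n = 3), 9.83% left.

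ZBTB24 and ZBTB48, grouped here by hand for roles in genome maintenance, were among the faster ones. This grouping is not a complete list of members with such roles. ZBTB24 had 5.19, 7.48 and 5.71 FPKM at 2 h in vehicle, from the 0 h levels given above, and 16.8, 16.4 and 16.8 and 4.39, 7.23 and 6.05 FPKM at 0 h and 2 h with CP25, which left 33.6% and 35.3%. At 2 h replicate 2 was the highest library for ZBTB24 in both treatments. ZBTB48 (TZAP), which binds telomeric repeats and limits telomere length, had 9.7, 9.38 and 10.1 FPKM at 0 h and 3.44, 3.46 and 4.33 FPKM at 2 h in vehicle. With CP25 it had 10.6, 8.92 and 8.75 and 3.55, 3.56 and 3.6 FPKM, so that 38.5% and 37.9% was left and the times stood apart.

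The 4 expressed lineage regulators ZBTB18, ZBTB7B, ZBTB1 and ZBTB46 had 42.2% to 64.1% left in vehicle, and none of them was among the 5 lowest log2 ratios; ZBTB7A, described above, also has such a role. ZBTB18 had 6.64, 6.67 and 6.19 FPKM at 2 h in vehicle and 16.7, 13.7 and 13.3 and 5.77, 6.36 and 6.37 FPKM at 0 h and 2 h with CP25, with 42.2% and 42.3% left. ZBTB7B, which commits T cells to the CD4 lineage, had 46.1% and 45.3% left, with 1.92 ± 0.413 FPKM at 2 h in vehicle (SD, n = 3) and replicate 2 the lowest in both treatments. ZBTB1, needed for lymphoid development, had 53.6% and 56.6% left. ZBTB46, a marker of classical dendritic cells, was among the 5 highest by log2 ratio of FPKM + 1, which its low level draws towards 0, and below ZBTB33 by percentage left: it had 2.48, 1.96 and 2.06 FPKM at 0 h and 1.45, 1.39 and 1.33 FPKM at 2 h in vehicle, and 1.95, 1.97 and 1.84 and 1.41, 1.21 and 1.45 FPKM with CP25. That left 64.1% and 70.6%, but with CP25 the log2 ratio turned to 0.02 when libraries were centred and to 0.06 after quantile normalization.

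ZBTB16 was low in every library and gave the same picture as the expressed members. Its libraries had 1.42, 1.15 and 1.13 FPKM at 0 h and 0.4, 0.349 and 0.425 FPKM at 2 h in vehicle, and 1.47, 1.18 and 1.46 and 0.533, 0.447 and 0.574 FPKM with CP25, that is 31.7% and 37.7% left with no overlap. ZBTB20 had 0.0212, 0.0351 and 0.0702 FPKM at 2 h in vehicle and 0.0585, 0.0595 and 0.00 FPKM with CP25, and for ZBTB32 all 3 vehicle libraries of 2 h are listed at 0. Since some of their libraries are listed at 0, the percentages of ZBTB20 and ZBTB32 are not given.

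The other 24 members, 22 of them expressed, were not placed in a group by role here. They held the lowest and highest percentage left in both treatments. By log2 ratio, ZBTB7A and ZBTB24 were also among the 5 lowest and ZBTB46 among the 5 highest. ZBTB6 had the lowest level left of all expressed members in vehicle: 9.32, 8.45 and 8.7 FPKM at 0 h became 1.8, 1.73 and 1.48 FPKM, or 18.9%. With CP25 it had 8.63, 7.3 and 8.19 and 1.92, 1.82 and 1.79 FPKM, or 22.9%. ZBTB9 had 9.17, 10.3 and 10.6 and 2.79, 3.33 and 2.97 FPKM in vehicle and 10.7, 9.73 and 11.1 and 2.35, 3.12 and 2.83 FPKM with CP25, with 30.3% and 26.3% left, values that cannot be assigned to ZBTB9 alone because its annotated exons are shared with another gene. For both genes every 2 h library stood far below the lowest 0 h library of its treatment.

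ZBTB34 had 9.37, 8.14 and 8.26 and 2.56, 2.35 and 2.69 FPKM in vehicle and 9.03, 8.21 and 8.13 and 2.59, 2.16 and 2.15 FPKM with CP25, with 29.5% and 27.2% left. ZBTB39 had 8.08, 7.11 and 7.55 and 2.3, 2.18 and 2.9 FPKM in vehicle and 7.63, 6.91 and 7.06 and 2.36, 1.8 and 2.33 FPKM with CP25 (32.4% and 30.0% left). ZBTB21 had 10.8, 11.2 and 10.5 and 3.37, 3.9 and 3.76 FPKM in vehicle and 10.5, 10.3 and 9.92 and 3.54, 4.5 and 3.94 FPKM with CP25 (33.9% and 39% left). None of these 3 overlapped between the times.

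By percentage left, ZBTB49, ZBTB45 and ZBTB3 belonged to the same end although their low level kept their log2 ratios of FPKM + 1 closer to 0. ZBTB49 had 19.8% and 21.1% left (1.96 ± 0.198 to 0.388 ± 0.0863 FPKM in vehicle), ZBTB45 24.3% and 26.4% (4.52 ± 0.58 to 1.1 ± 0.118 FPKM) and ZBTB3 25.7% and 32.7% (2.13 ± 0.307 to 0.548 ± 0.0743 FPKM, SD, n = 3). ZBTB49 and ZBTB3 rested on an estimated 26.5 and 35.3 fragments in their lowest library, which gives a counting error of 19.4% and 16.8% there.

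**Figure D3:**
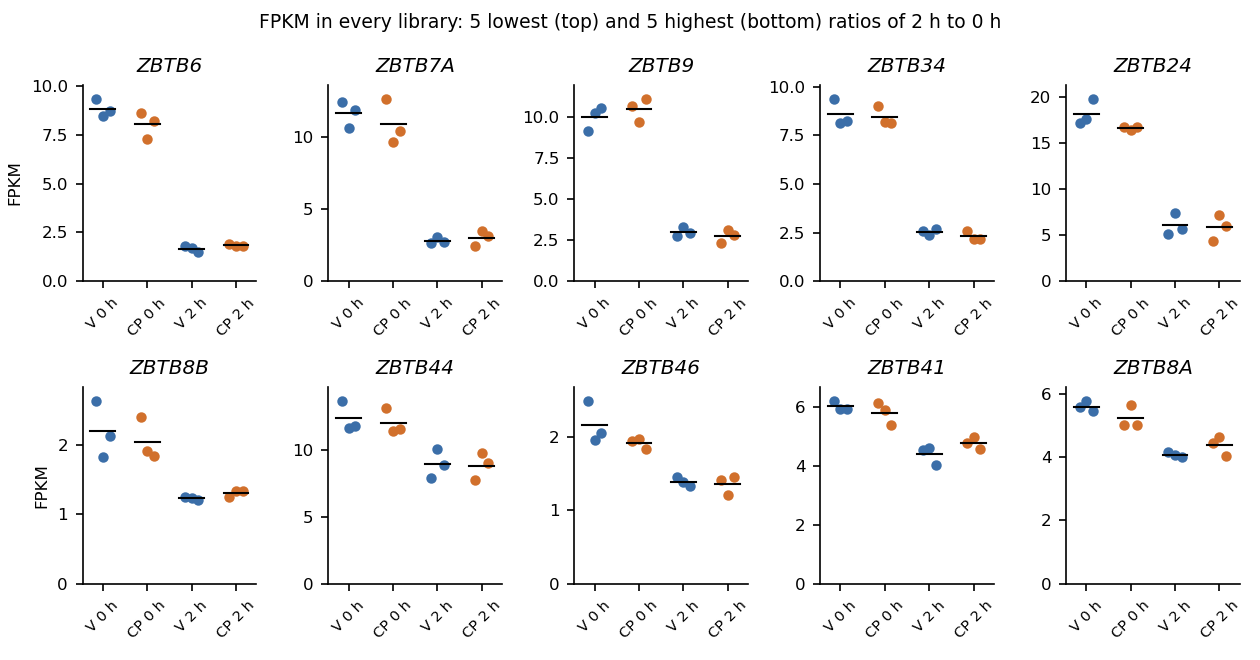
FPKM in each of the 12 libraries (vertical axes, each from 0) for the 5 members with the lowest (top row) and the 5 with the highest (bottom row) mean log2 ratio of 2 h to 0 h; V is vehicle, CP is CP25, points are libraries in the order of replicates 1 to 3 and bars are group means. In the top row the 2 h libraries sit far below those of 0 h, at 18.9% to 33.6% of the 0 h mean in vehicle; in the bottom row at 56.0% to 73.0%, and for ZBTB46, ZBTB41 and ZBTB8A the direction depends on the scaling.

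ZBTB10 and ZBTB11 were among the highest members at both times, and the percentage left was nearer the middle of the family. ZBTB10 had 5.23, 7.71 and 6.19 FPKM at 2 h in vehicle and 16.2, 16.6 and 15.2 and 6.02, 8.34 and 7.06 FPKM at 0 h and 2 h with CP25, with 37.5% and 44.6% left. ZBTB11 had 8.09, 9.49 and 7.63 FPKM at 2 h in vehicle and 19, 17 and 17.3 and 8.28, 9.69 and 7.96 FPKM with CP25, with 46% and 48.7% left. ZBTB40, at a locus linked to bone density, had 11.5, 9.52 and 10.5 and 4.53, 5.38 and 5.13 FPKM in vehicle and 10.8, 9.11 and 9.29 and 4.32, 5.33 and 4.73 FPKM with CP25, with 47.6% and 49.2% left. For ZBTB10, ZBTB11 and ZBTB40 alike, replicate 2 was the highest of the 3 libraries at 2 h in both treatments.

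ZBTB43 had 41.6% and 46.1% left and ZBTB37 51% and 59.2%. ZBTB47 had 3.34, 2.63 and 3.15 and 1.47, 1.6 and 1.65 FPKM in vehicle and 3.76, 2.85 and 3.03 and 1.26, 1.62 and 1.37 FPKM with CP25, with 51.9% and 44% left. ZBTB12 had 8.7, 7.38 and 7.64 and 3.78, 4.89 and 4.96 FPKM in vehicle and 8.09, 8.58 and 8.19 and 4.33, 4.84 and 4.91 FPKM with CP25, with 57.5% and 56.6% left. ZBTB22 had 4.82, 4.26 and 4.67 and 2.47, 2.5 and 2.5 FPKM in vehicle and 4.8, 4.89 and 4.7 and 2.81, 2.38 and 3.17 FPKM with CP25, with 54.3% and 58.1% left. ZBTB47, ZBTB12 and ZBTB22 thus kept more than the family's median in vehicle, and their times did not overlap.

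ZBTB25 was the member whose times overlapped. It had 5.56, 4.66 and 3.92 FPKM at 0 h and 2.92, 1.92 and 3.1 FPKM at 2 h in vehicle, and 5.29, 4.67 and 3.7 and 3.54, 2.69 and 3.75 FPKM with CP25. In CP25 replicate 3 at 2 h stood above replicate 3 at 0 h, and the level left was 56.2% in vehicle and 73% with CP25.

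At the slow end by log2 ratio, ZBTB8A had 5.57, 5.76 and 5.45 FPKM at 0 h and 4.15, 4.06 and 3.99 FPKM at 2 h in vehicle (72.8% left), and 5.02, 5.63 and 5 and 4.43, 4.63 and 4.03 FPKM with CP25 (83.6% left). ZBTB41 had 6.19, 5.93 and 5.95 and 4.53, 4.62 and 4.04 FPKM in vehicle (73% left) and 6.14, 5.88 and 5.38 and 4.76, 4.97 and 4.56 FPKM with CP25 (82.1% left). Both stayed under the 0 h level in every library as deposited, but their log2 ratios became 0.10 and 0.10 in vehicle after quantile normalization, and with CP25 0.11 (ZBTB8A) and 0.09 (ZBTB41) when centred. ZBTB44 had 13.6, 11.7 and 11.8 and 7.89, 10.1 and 8.83 FPKM in vehicle and 13.1, 11.4 and 11.6 and 7.7, 9.77 and 8.98 FPKM with CP25 (72.3% and 73.4% left). ZBTB8B had 2.63, 1.83 and 2.13 and 1.25, 1.23 and 1.2 FPKM in vehicle and 2.4, 1.91 and 1.83 and 1.24, 1.33 and 1.33 FPKM with CP25 (56% and 63.5% left). For ZBTB44 and ZBTB8B the ratio kept its direction under each scaling tried.

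Genes that lie side by side could differ. ZBTB6 and ZBTB26 are neighbours on the minus strand of chromosome 9, with 2236 nt between their annotated genes on GRCh38, and had 18.9% and 56.8% left in vehicle and 22.9% and 61.8% with CP25. ZBTB34 and ZBTB43, also on chromosome 9, had 29.5% and 41.6% left in vehicle, and ZBTB8A and ZBTB8B on chromosome 1 had 72.8% and 56%. Annotated exons of 10 members share at least 5% of their bases with another gene, 5 of them on the same strand. On the same strand the share was 56.1% for ZBTB20, 25.2% for ZBTB8A, 11.5% for ZBTB8B and 5.53% for ZBTB24. ZBTB9 is also among these genes. On the opposite strand ZBTB11 shares 14.8% with its antisense RNA gene and ZBTB1 6.02% with ZBTB25. The share there was 9.06% for ZBTB46, 7.52% for ZBTB12 and 5.03% for ZBTB10. It is unknown how reads in shared bases were counted. The values of all 10 members are therefore uncertain, those of ZBTB9 the most.

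The comparison of CP25 with vehicle at 0 h asks whether 18 h of decapping inhibitor changed the steady level of these mRNAs. No ZBTB mRNA passed the test. Of 37 members tested (the 36 and ZBTB16), 0 were called by limma at a Benjamini-Hochberg adjusted p of 0.05 (0.0% of 12365 genes), 0 had an unadjusted p under 0.05 (0.712% of genes), and the p-values of the authors' deposited table, adjusted here, called 0. The 95% interval excluded a 2-fold and a 1.5-fold change of FPKM + 1 for 37 of 37 members, near the 98.5% and 95.6% of all genes tested; for members near 2 FPKM this bounds the change of FPKM itself less tightly.

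The smallest p was that of ZBTB24, with a log2 change of -0.12 (95% interval -0.27 to 0.03) and an unadjusted limma p of 0.107 (adjusted p = 1.00). All 3 CP25 libraries lay below the 3 of vehicle for ZBTB24 and ZBTB21, 2 of 37 members, against 2.85% of all genes tested, and above them for 0 members, against 1.23%. ZBTB6 had -0.12 (95% interval -0.30 to 0.06) and ZBTB21 -0.08 (95% interval -0.21 to 0.06). Above zero with the smallest p were ZBTB9 at 0.07 (95% interval -0.11 to 0.25), ZBTB12 at 0.06 (95% interval -0.11 to 0.23) and ZBTB22 at 0.05 (95% interval -0.11 to 0.22). The libraries of ZBTB6, ZBTB9, ZBTB12 and ZBTB22 overlapped between the treatments.

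By value, 30 of 37 members were below zero at 0 h, against 52.5% of all genes, with a median of -0.05 against -0.0036. Without vehicle replicate 1, the library with the least depth, it was 23 of 38 (60.8% of all genes) and a median of -0.03. Without that library the share of members below zero was thus no higher than that of all genes. With any other single library left out, 26 to 29 of 37 or 38 members were below zero, against 47.3% to 55.8% of all genes. Whether depth bears on this was not tested.

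After 2 h of block, the same comparison asks whether CP25 left more of an mRNA. Of 34 members tested, 0 were called by limma (0.00851% of 11745 genes, 1 gene), 0 had an unadjusted p under 0.05 (0.741% of genes), and the authors' deposited p-values, adjusted here, called 0. By value 17 members were above zero (53.7% of genes) and 17 below (46.3%), with a median of 0.0031. A 2-fold change of FPKM + 1 was outside the interval for 34 of 34 members and a 1.5-fold change for 33, near the 98.9% and 96.3% of all genes tested. As at 0 h, this bounds the change of FPKM itself less tightly for low members.

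ZBTB25, with the smallest p, had a log2 change of 0.25 (95% interval -0.11 to 0.62) and an unadjusted limma p of 0.149 (adjusted p = 1.00), and its libraries overlapped between the treatments. ZBTB41 had 0.10 (95% interval -0.09 to 0.28) and ZBTB22 0.11 (95% interval -0.12 to 0.34). On the other side ZBTB4 had -0.11 (95% interval -0.31 to 0.09), ZBTB39 -0.13 (95% interval -0.41 to 0.15) and ZBTB34 -0.10 (95% interval -0.32 to 0.12). Of 34 members only ZBTB4 had all CP25 libraries below those of vehicle (1.75% of all genes tested), and 0 had them above (2.47%). ZBTB6, the fastest member, had 0.09 (95% interval -0.12 to 0.31), and ZBTB7A 0.08 (95% interval -0.19 to 0.34).

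**Figure D4:**
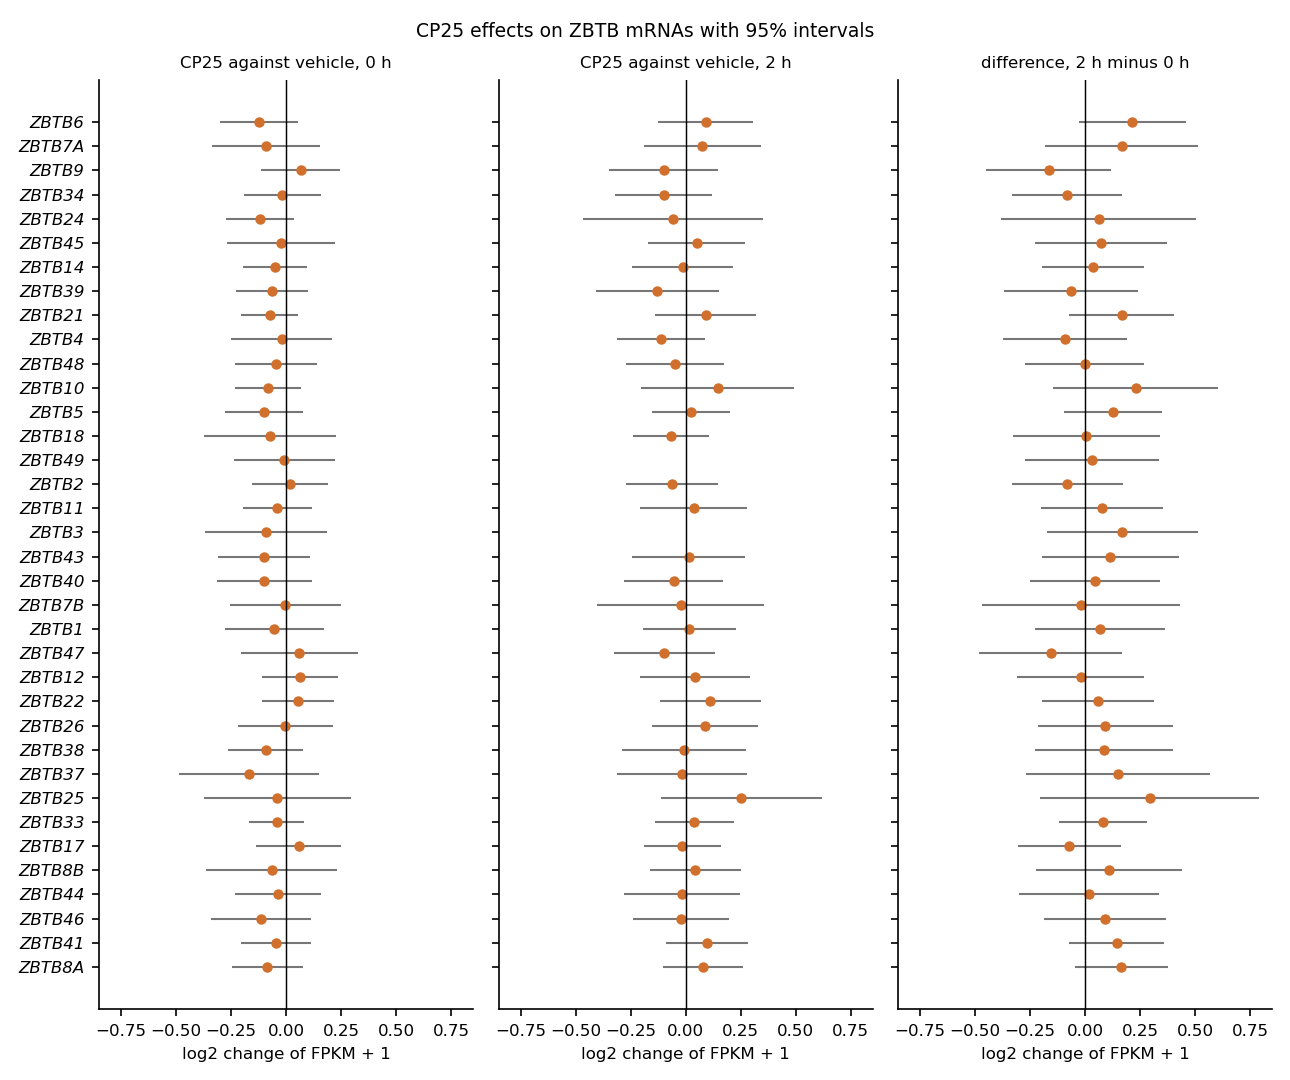
Log2 change of FPKM + 1 with CP25 against vehicle at 0 h (left) and 2 h (middle) and the difference of both (right) for the 36 expressed members, in the order of their log2 ratio of 2 h to 0 h; points are limma estimates, lines 95% intervals, and ZBTB49 and ZBTB3 were below the level for testing at 2 h. Each interval reaches or crosses 0, and the widest upper bound is 0.79 for the difference of ZBTB25.

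The study's title concerns mRNA half-life, which the difference of the CP25 effects, 2 h minus 0 h, addresses: above zero, relatively more of an mRNA was left with CP25. A scale factor between the tables cancels in it only roughly, and least for low members, because 1 is added to each FPKM. Of 36 members 0 were called by limma (0.0% of 12183 genes) and 0 had an unadjusted p under 0.05 (1.26% of genes). By value 26 were above zero, against 53.6% of all genes, with a median of 0.07 against 0.0083. This median of the members was 0.03 without vehicle replicate 1 at 0 h, and 0.0473 to 0.101 with any other single library left out. On the scale of FPKM + 1 the interval excluded a 2-fold difference for 36 and a 1.5-fold difference for 34 members. Of all genes tested it did so for 97.6% and 86.7%. The exceptions to the 1.5-fold bound were ZBTB10 and ZBTB25. For members low at 2 h this bounds the difference in FPKM itself less tightly. ZBTB3, with 25.7% left in vehicle and 32.7% with CP25, had a fitted difference of only 0.17.

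ZBTB6 had the smallest p, with a difference of 0.21 (95% interval -0.03 to 0.46) and an unadjusted limma p of 0.0794 (adjusted p = 1.00), followed above zero by ZBTB8A at 0.17 (95% interval -0.05 to 0.38) and ZBTB21 at 0.17 (95% interval -0.07 to 0.41). Below zero were ZBTB9 at -0.17 (95% interval -0.45 to 0.12), ZBTB47 at -0.16 (95% interval -0.48 to 0.17) and ZBTB4 at -0.09 (95% interval -0.37 to 0.19). The fast members ZBTB7A, ZBTB24 and ZBTB34 had 0.17 (95% interval -0.18 to 0.51), 0.06 (95% interval -0.38 to 0.51) and -0.08 (95% interval -0.33 to 0.17). The fast members named here lay on both sides of zero. The 5 with the highest log2 ratios of 2 h to 0 h (ZBTB8A, ZBTB41, ZBTB46, ZBTB44 and ZBTB8B) were above it by value, none past the test. Above zero were also 26 of all 36 members and 53.6% of all genes. The order of the members comes from the same libraries as the difference, so no contrast between fast and slow members is drawn.

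Libraries with the same number moved together for this family. At 0 h replicate 1 was the highest of the 3 libraries for 25 of 36 members in vehicle and for 25 of 36 with CP25 (69.4%), against 34.3% and 37.7% of all expressed genes. The median member lay 0.08 above its group mean in vehicle replicate 1 and 0.07 above it in CP25 replicate 1, on the log2 scale. At 2 h replicate 2 was highest for 18 members in vehicle (40.7% of genes) and 19 of 36 with CP25 (40.8%). Members' deviations from the group mean correlated between same-numbered vehicle and CP25 libraries at 0.49, 0.47 and 0.49 at 0 h and at 0.66, 0.80 and 0.38 at 2 h (36 members, a description).

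Taking the number as a block narrowed the intervals and called 0 members. The share of all genes with an unadjusted limma p under 0.05 was 6.93% with the block and 0.712% without it at 0 h. At 2 h it was 6.93% and 0.741%, and for the difference 10.5% and 1.26%. Pairing by number was not taken as shown at 0 h. The test without the block was still the more conservative in each comparison. At 0 h ZBTB5 and ZBTB6 then had an unadjusted limma p under 0.05 below zero (4.32% of genes), and at 2 h ZBTB10 and ZBTB25 above zero (3.64%). For the difference 5 members did above zero (6.3% of genes): ZBTB10, ZBTB25, ZBTB6, ZBTB21 and ZBTB8A. ZBTB10 had 0.23 (95% interval 0.11 to 0.35, unadjusted p = 0.00242) and ZBTB25 0.29 (0.12 to 0.46, unadjusted p = 0.00408), with limma adjusted p-values of 0.283 and 0.293. Without the block the intervals of ZBTB25 and ZBTB10 were 0.99 and 0.75 across.

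**Figure D5:**
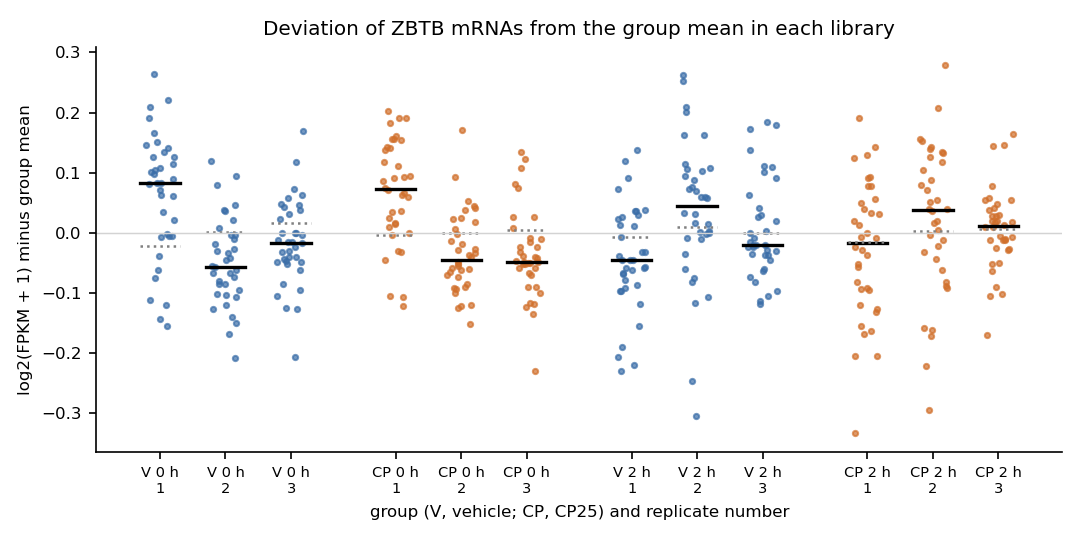
Deviation of log2(FPKM + 1) from the group mean (vertical axis) for the 36 expressed ZBTB members in each of the 12 libraries, by group (V, vehicle; CP, CP25) and replicate number (horizontal axis); solid bars are medians of the members and dotted bars medians of all expressed genes. Replicate 1 at 0 h lies high in both treatments, with medians of 0.08 and 0.07.

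Genes of related and of partner proteins, from lists chosen with earlier results known, are set beside the members as values. Genes that encode BTB zinc finger proteins under other symbols numbered 8 of 11 listed, 6 of them expressed: their median log2 ratio was -0.94 in vehicle and -0.97 with CP25, and 4 of 6 had under 50% left in both. Among these HIC2 had 31.2% left in vehicle and ZNF131 61.4%. Genes with ZNF symbols, most of which encode C2H2 zinc finger proteins without a BTB domain, had a median of -0.80 in vehicle over 374 expressed genes, with 47.8% left, close to the 46.0% of the ZBTB members. Of 24 corepressors, deacetylases and other partners, 3 had under 50% left in both treatments: MYC, the corepressor BCOR (27.7% in vehicle) and the acetyltransferase EP300 (33.9%). Their median ratio was -0.28 in vehicle and -0.27 with CP25, with NCOR1 at 93.9% and HDAC1 at 126% of the 0 h level in vehicle. In the 3 CP25 tests 0 genes of either list were called by limma, with adjusted p-values of 1.00 throughout.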

How the data were processed

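Poly(A) RNA of 12 HEK293T libraries was sequenced by the authors. The submitters' processing notes name Bowtie2 2.2.3, Trimmomatic 0.36, CASAVA 1.8.2 and the hg19 build; which program and annotation gave the values is not given in the sources used here. Deposited values are the authors' FPKM per library, 1 table for each time, and a comparison of CP25 with vehicle per time with group means in FPKM and a p-value, which was taken as unadjusted. No other columns of per-sample values were present. Members and lists were chosen with earlier results of these data known.

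Here log2(FPKM + 1) was computed and genes averaging 1 FPKM or more in a fit's libraries were tested with limma 3.58.1 in R 4.3.3 (moderated variances with a mean trend, two-sided, Benjamini-Hochberg adjustment over all genes tested, 95% intervals). CP25 was compared with vehicle within each time, and the difference of both effects was the interaction contrast over 12 libraries. Levels at 2 h against 0 h were described as percentages of mean FPKM and as log2 ratios. A log2 change of FPKM + 1 understates the change of low genes. The fit was tested on simulated data. Fragments per library were estimated from the steps between low FPKM values of genes of known length, with an effective length of 200 nt less than the transcript. Between 75.4% and 80.4% of such values lay within 0.15 of a whole number of fragments, so depth and counting errors are estimates. Scaling between libraries by the authors' program, if there was any, would shift them.

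Deviations from the group mean over all expressed genes correlated between same-numbered vehicle and CP25 libraries at 0.35, 0.45 and 0.15 at 2 h, all above 0.1. Vehicle replicate 3 and CP25 replicate 1 also reached 0.11 at 2 h, so the threshold does not single out number 3. A pairing by number at 2 h thus comes from the data, not from the labels, and is least clear for number 3. At 0 h the values for the same numbers were 0.26, -0.01 and 0.12. Over all genes 1 number fell short of 0.1 and pairing was not taken as shown there, although over the members alone they were 0.49, 0.47 and 0.49.

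Every member was named with its level. Values in every library were given for the 5 lowest and 5 highest mean log2 ratios, the 5 highest 0 h levels, the 3 smallest p per direction in each test, and 9 members with known roles. Other alternatives were a pseudocount of 0.1, no filter, a filter at 5 FPKM, centring, quantile normalization, a replicate block, each library left out, and the authors' p-values. Transcript features came from GENCODE 29 on GRCh38. The name of 1 gene is not reported here.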

Additional observations from a re-analysis of the deposited data

How the results depend on the processing

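The call of 0 members held in each alternative run, in all 3 CP25 tests. With the replicate number as a block the medians over members were -0.05 at 0 h, 0.0031 at 2 h and 0.07 for the difference, as without it, the ratios of 2 h to 0 h had medians of -0.98 in vehicle and -0.88 with CP25, and the block changed no call. Among medians over members, that at 0 h was -0.0291 after quantile normalization and ran from -0.0928 to -0.0267 with 1 library left out. At 2 h it ran from -0.00169 to 0.0503 and for the difference from 0.0321 to 0.101 with 1 library left out. The median ratio of 2 h to 0 h in vehicle was -0.82 with no filter, -1.15 with a filter at 5 FPKM, -0.63 with libraries centred (7 members below -1) and -0.56 after quantile normalization (4 members), and -1.02 to -0.93 with 1 library left out (15 to 18 members). With CP25 it was -1.12 with a pseudocount of 0.1, -1.07 with a filter at 5 FPKM, -0.55 centred (7 members), -0.47 after quantile normalization (5 members), and -0.92 to -0.85 with 1 library left out (14 to 17 members). Single log2 ratios were followed only for the 5 lowest and 5 highest members. Among these, ZBTB41 (0.10) and ZBTB8A (0.10) turned positive in vehicle after quantile normalization. With CP25 ZBTB46 (0.0613), ZBTB41 (0.22) and ZBTB8A (0.25) did so. Centring with CP25 turned ZBTB46 (0.0158), ZBTB41 (0.0891) and ZBTB8A (0.11). This list is not complete for the family. After quantile normalization with CP25 only 32 of 36 members were below the median of all genes, 0.0605. Both settings shift the 2 h libraries against those of 0 h by construction. Of the other values of single genes, 438 were counted as kept and 43 as moved without turning. For ratios of 2 h to 0 h, kept meant a move smaller than the spread between libraries. For the CP25 tests it meant only the same direction and the same call, and size was not compared. Depth limits ZBTB49, ZBTB3 and the members below 1 FPKM.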
